A study of Homo sapiens with 4 samples.

Results

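The cyclins and cyclin-dependent kinases (CDKs) were followed between the nuclear and the cytoplasmic RNA of HEK293T cells. Members were the protein-coding genes whose symbol is CCN with 1 further letter and, optionally, an L and a number, or CDK with a number and optionally A or B. This gave 50 of the 51740 rows of the deposited table, and all 50 were among its 23333 tested genes. There were 16 cell-cycle members (the A, B, D and E cyclins, CCNF and CDK1, 2, 3, 4 and 6), 13 transcriptional members (CCNK, CCNL1, CCNL2, CCNT1, CCNT2 and CDK7 to CDK13) and 21 others. HEK293T is a human embryonic kidney line that carries SV40 large T antigen, a viral protein that binds the RB proteins on which CDK4 and CDK6 act. All cells were fixed with formaldehyde before lysis, and there was no unfixed or second cell line in the comparison. RNA was sequenced from 2 biological replicates of each of 2 fractions, nuclear and cytoplasmic, after ribosomal RNA depletion. The sample description calls the material total cell, and the groups were taken from the label that gives the fraction.

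A CDK is a kinase that is largely inactive until a cyclin binds it. D cyclins with CDK4 or CDK6 act in G1, E and A cyclins with CDK2 act at the start and during S phase, and B cyclins with CDK1 drive mitosis. Another branch of the family acts on transcription: CDK7 with cyclin H, CDK9 with a T cyclin, and CDK12 or CDK13 with cyclin K phosphorylate RNA polymerase II, CDK8 and CDK19 belong to the Mediator complex with cyclin C, and the CDK11 kinases pair with L cyclins and act on splicing.

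The table held 1 mean normalized count per gene over the 4 libraries and the fold change of cytoplasm over nucleus from DESeq2. The whole-number read counts of each library were solved from these values, as described with the processing, for all 50 members. A normalized count below is such a read count divided by the size factor of its library, and in each pair of values the deeper library of a fraction stands first. Reads over exons and introns were counted together, so unspliced RNA enters each value, and a value is a share of a fraction's RNA and not an amount per cell. In GENCODE 44, a later annotation than that of the files, other genes on either strand overlap 100% of CDK2, CCND2, CDK3, CCNJ and CCNC. They overlap 98.4% of CDK11A, 78.4% of CCNH and 64.7% of CCNK. Where the authors' own annotation also held such a gene, the shared stretch was removed before counting. Where it did not, reads there may not be separable. Genes on the same strand covered 100% of CDK3, 98.4% of CDK11A, 88.8% of CCND2, 29.2% of CDK10 and 20.1% of CCNB2. They covered 2.0% of CCNK and 0% of CDK2, CCNJ, CCNC and CCNH. The library kit was stranded, but whether counting used strand is not given. In these bulk libraries fewer cells with a transcript and less of it per cell cannot be told apart. NEAT1, a long noncoding RNA of nuclear paraspeckles, had 5613 and 4627 normalized counts in the nuclear libraries and 606 and 596 in the cytoplasmic ones. It stood 8.52-fold higher in the nuclear fraction, and MALAT1, a noncoding RNA of nuclear speckles, stood 11.1-fold higher there.

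Transcripts of the cell-cycle members stood mostly higher in the cytoplasmic fraction and those of the transcriptional members mostly in the nuclear fraction. At a DESeq2 adjusted p of at most 0.01, the study's threshold, 12 of the 16 cell-cycle members had more in the cytoplasmic fraction, 2 had more in the nuclear fraction and 2 were not called. Of the 13 transcriptional members, 2 had more in the cytoplasmic fraction, 9 more in the nuclear fraction and 2 were not called. The other 21 members divided into 8, 5 and 8. Cytoplasmic calls made up 35.6% and nuclear calls 28.4% of the tested protein-coding genes, and 25.9% and 26.5% of all 23333 tested genes. The cell-cycle members had 75.0% and 12.5%, and the transcriptional members 15.4% and 69.2%. The median log2 fold change, cytoplasmic over nuclear, was 1.49 for the cell-cycle, -1.19 for the transcriptional and -0.11 for the other members, against 0.11 for the tested protein-coding genes and -0.12 for all tested genes. With limma on the solved counts, 22 members had a cytoplasmic and 18 a nuclear call, beside 42.9% and 35.8% of the protein-coding genes tested that way. These medians and counts describe the groups, which were named with earlier results of these data known, and no test was made over them.

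**Figure D1:**
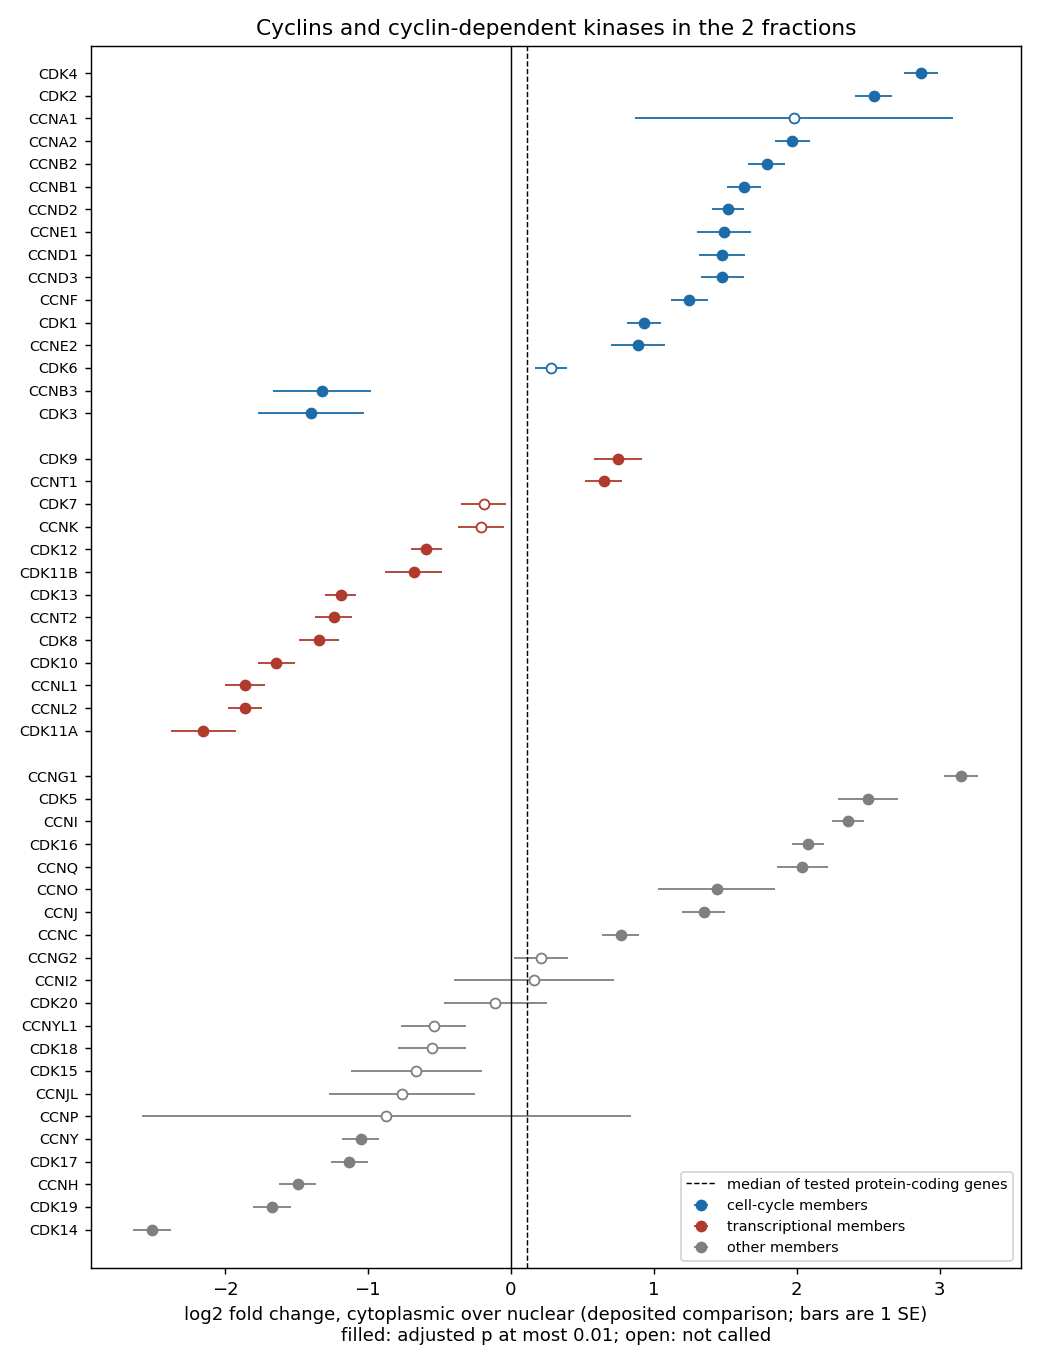
Log2 fold change of cytoplasmic over nuclear normalized counts for the 50 members, with bars of 1 standard error; filled points have an adjusted p of at most 0.01. The cell-cycle members run from 2.87 to -1.40 and the transcriptional members from 0.75 to -2.15, and the dashed line marks the protein-coding median of 0.11.

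The same contrast stood within single libraries, where no scaling between libraries enters. Summed read counts of the 16 cell-cycle members were 0.721 and 0.713 times those of the 13 transcriptional members in the nuclear libraries, and 3.33 and 3.48 times in the cytoplasmic ones. The ratios of the 2 fractions did not overlap. These sums restate the same counts, and members with many reads, such as CDK6 and CCND2, weigh most in them. How often such sums of other gene sets overlap was not computed. With 2 libraries against 2 no exact permutation test could go below a two-sided p of 0.333, so this ratio carries no test. The zero point of the fold changes depended on the scaling. Equal library totals here means that 0.66 was subtracted from every deposited log2 fold change. That value is the log2 ratio of the summed cytoplasmic to the summed nuclear mean counts. Standard errors were kept, p-values were computed anew, and no library was scaled again. The 22 members higher in the cytoplasmic and 16 higher in the nuclear fraction would then be 16 and 22, the cell-cycle members 10 and 3, and the transcriptional members 0 and 11. All tested genes would shift alike, and the shares of them called at equal totals are not given here. These counts show only how far the calls depend on scaling. The difference between the medians of the transcriptional and the cell-cycle members, -2.67, does not move with scaling.

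Within G1, the kinase CDK4 had the highest log2 fold change of the cell-cycle members. CDK4, on chr12:57747727-57756013 (hg38, minus strand), had 925 and 1106 normalized counts in the nuclear and 7082 and 7756 in the cytoplasmic libraries. Its log2 fold change was 2.87 ± 0.12 (SE, 2 libraries a fraction; DESeq2 adjusted p = 1.86e-116), above 96.6% of the tested protein-coding genes. CDK6, which binds the same D cyclins, had 5127 and 4731 nuclear against 5791 and 6170 cytoplasmic normalized counts. Its libraries did not overlap, but the log2 fold change of 0.28 ± 0.11 was not called (DESeq2 adjusted p = 0.0189), and at equal library totals it would be -0.38 and called higher in the nuclear fraction (adjusted p = 8.79e-04). The 3 D cyclins, whose proteins link growth signals to these kinases, lay close together. CCND1 had 993 and 848 nuclear and 2196 and 2938 cytoplasmic normalized counts, with a log2 fold change of 1.48 ± 0.16 (DESeq2 adjusted p = 8.49e-21). CCND2, with 2492 and 2860 against 7462 and 7917, stood at 1.52, and CCND3, with 403 and 410 against 1144 and 1118, at 1.48. Differences among the D cyclins were smaller than their standard errors.

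At the entry to S phase, CDK2 stood near CDK4. It had 479 and 576 normalized counts in the nuclear and 2983 and 3135 in the cytoplasmic libraries, a log2 fold change of 2.54 ± 0.13 (DESeq2 adjusted p = 1.66e-78). CCNE1, which opens S phase with CDK2, had 206 and 197 nuclear and 522 and 612 cytoplasmic normalized counts, with a log2 fold change of 1.49 ± 0.19 (DESeq2 adjusted p = 1.47e-14). Its close relative CCNE2 was lower at 0.89 ± 0.19 and was no longer called at equal library totals. CCNA2, the A cyclin of dividing somatic cells, had 822 and 787 nuclear against 2993 and 3324 cytoplasmic normalized counts, a log2 fold change of 1.97 ± 0.12 (DESeq2 adjusted p = 5.71e-56). These 4 genes each had their lower cytoplasmic value above their higher nuclear one. Most members had no overlap between the fractions, among them CDK7 and CCNK, which were not called. The share of all genes without overlap was not computed.

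Genes of the mitotic set stood higher in the cytoplasmic fraction too. CCNB1 had 1381 and 1591 nuclear and 4415 and 4800 cytoplasmic normalized counts and a log2 fold change of 1.63 ± 0.12 (DESeq2 adjusted p = 5.55e-40), and CCNB2, with 562 and 610 against 2026 and 2024, stood at 1.79. CDK1, the kinase both of them activate, was lower than either: 1370 and 1502 normalized counts in the nuclear and 2744 and 2734 in the cytoplasmic libraries gave 0.93 ± 0.12 (DESeq2 adjusted p = 2.35e-14). At equal library totals CDK1 would be at 0.27 with an adjusted p of 0.0396. CCNF, whose protein is the substrate receptor of a ubiquitin ligase and does not activate a CDK, had a log2 fold change of 1.25.

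The 2 cell-cycle members higher in the nuclear fraction had few reads. CCNB3, a B cyclin known from meiosis, had 120 and 147 normalized counts in the nuclear and 51.6 and 55.7 in the cytoplasmic libraries, a log2 fold change of -1.32 ± 0.34 (DESeq2 adjusted p = 2.88e-04). CDK3, a kinase linked to the exit from quiescence, had 107 and 144 against 42.2 and 53.0, and its log2 fold change was -1.40 ± 0.37 (DESeq2 adjusted p = 3.15e-04). In GENCODE 44 the readthrough gene TEN1-CDK3, on the same strand, covers 100% of CDK3. The authors removed annotated readthrough transcripts before counting, so reads of such a transcript could be counted as CDK3 and cannot be told apart. The germline cyclin CCNA1 had only 4 reads in each nuclear library and 10 in each cytoplasmic one, and its log2 fold change of 1.98 ± 1.11 was not called.

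**Figure D2:**
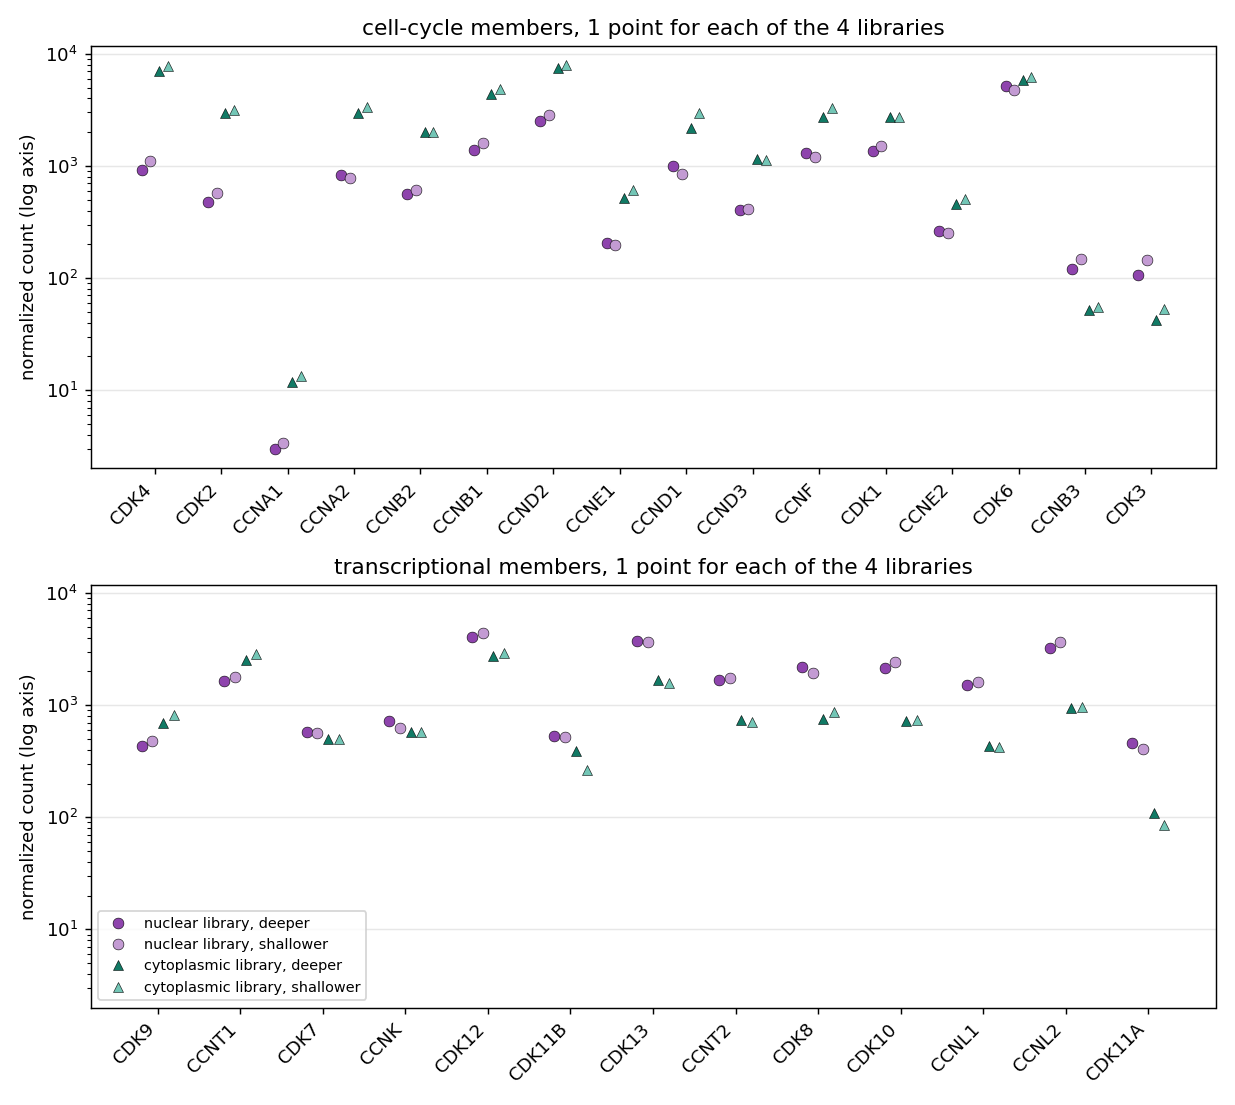
Normalized count of each cell-cycle and transcriptional member in each of the 4 libraries on a log axis; circles are nuclear and triangles cytoplasmic libraries. CDK4 rises from 925 and 1106 to 7082 and 7756, while CCNL2 falls from 3246 and 3656 to 936 and 970.

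Among the transcriptional members, positive transcription elongation factor b (P-TEFb), which releases paused polymerase, held the only 2 genes called higher in the cytoplasmic fraction. Its kinase CDK9 had 429 and 475 nuclear and 696 and 824 cytoplasmic normalized counts, a log2 fold change of 0.75 ± 0.17 (DESeq2 adjusted p = 1.50e-05). Its cyclin CCNT1 had 1643 and 1799 against 2515 and 2882, at 0.65 ± 0.13 (DESeq2 adjusted p = 6.84e-07). Neither was called at equal library totals, where CDK9 would be at 0.09 and CCNT1 at -0.01. The alternative cyclin CCNT2 went the other way, with 1673 and 1747 nuclear and 736 and 706 cytoplasmic normalized counts and a log2 fold change of -1.24 ± 0.13 (DESeq2 adjusted p = 2.05e-20).

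The kinases that follow polymerase along the gene body were higher in the nuclear fraction. CDK12 had 4079 and 4393 nuclear and 2745 and 2894 cytoplasmic normalized counts, a log2 fold change of -0.59 ± 0.11 (DESeq2 adjusted p = 4.41e-07). CDK13, its close relative, had 3758 and 3661 against 1671 and 1586, at -1.19 ± 0.11 (DESeq2 adjusted p = 1.19e-24). Their shared cyclin CCNK, with 716 and 630 against 580 and 580, was not called at -0.21 ± 0.16 (DESeq2 adjusted p = 0.244). CDK7, the kinase of the initiation factor TFIIH, was not called either, with 575 and 563 nuclear and 504 and 497 cytoplasmic normalized counts and a log2 fold change of -0.19 ± 0.16 (DESeq2 adjusted p = 0.328). At equal library totals CCNK and CDK7 would be at -0.88 and -0.85 and both would be called higher in the nuclear fraction.

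CDK8, the Mediator kinase, had 2177 and 1929 nuclear and 749 and 876 cytoplasmic normalized counts and stood at -1.34. CDK10, whose partner is cyclin Q, had 2146 and 2413 against 723 and 739 and stood at -1.64. The L cyclins, whose proteins sit in nuclear speckles and act on splicing, were among the lowest members. CCNL1 had 1506 and 1605 nuclear and 431 and 423 cytoplasmic normalized counts, a log2 fold change of -1.86 ± 0.14 (DESeq2 adjusted p = 2.75e-38). CCNL2 had 3246 and 3656 against 936 and 970, at -1.86 ± 0.12 (DESeq2 adjusted p = 3.85e-49). Of the tested protein-coding genes, 13.1% lay below CCNL2, and neither gene's libraries overlapped between the fractions.

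Their kinases CDK11A and CDK11B are near-identical neighbours, which bears on how far their counts can be separated. On hg38 with GENCODE 44, CDK11A lies on chr1:1702379-1724357 and CDK11B on chr1:1635225-1659012, both on the minus strand. Of the 20 exons of each canonical transcript, 17 had the same length in both, 7 of these had the same sequence, and the 17 differed at 24 of 2130 bases. Exon 14, a coding exon, is shown on the coding strand with the 1 differing base in capitals, from chr1:1704550-1704655 for CDK11A and chr1:1637408-1637513 for CDK11B.
CDK11A: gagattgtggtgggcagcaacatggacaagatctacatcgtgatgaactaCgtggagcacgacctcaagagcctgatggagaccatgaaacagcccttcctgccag
CDK11B: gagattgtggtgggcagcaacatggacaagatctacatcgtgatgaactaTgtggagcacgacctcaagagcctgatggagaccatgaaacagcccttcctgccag
A single read of 100 bases that lies in the mature transcript of CDK11A would also match CDK11B exactly at 49.4% of its possible positions. With introns included, the share was 37.0% for CDK11A and 34.2% for CDK11B. Reads were sequenced in pairs, and the share for pairs was not computed. CDK11A had 464 and 406 normalized counts in the nuclear and 109 and 86.1 in the cytoplasmic libraries, a log2 fold change of -2.15 ± 0.23 (DESeq2 adjusted p = 2.03e-19) and the lowest of the transcriptional members. CDK11B had 532 and 522 against 392 and 265, at -0.68 ± 0.20 (DESeq2 adjusted p = 1.77e-03). Its 2 cytoplasmic values lay far apart, and without the shallower cytoplasmic library its limma log2 fold change was -0.43 and the call was lost (limma adjusted p = 0.02). In GENCODE 44 a further gene on the same strand covers 98.4% of CDK11A. Stretches shared in the authors' own annotation were not counted, and how much of CDK11A was left is not known here. With the shared sequence, both values are uncertain as values of single genes.

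Outside the 2 groups, CCNG1 had the highest log2 fold change of all members. This p53 target had 609 and 710 nuclear and 5623 and 6085 cytoplasmic normalized counts, at 3.15 ± 0.12 (DESeq2 adjusted p = 7.01e-141). Its relative CCNG2 had 394 and 364 against 383 and 494, and the fractions overlapped. CDK5, a kinase best known from neurons, had 87.3 and 95.9 against 489 and 549, with a log2 fold change of 2.50 ± 0.21 (DESeq2 adjusted p = 5.43e-31). CCNI had 1279 and 1250 against 6432 and 6578, at 2.36 ± 0.11 (DESeq2 adjusted p = 1.70e-103). CDK16, a kinase that cyclin Y also binds, had 2840 and 3046 against 11895 and 13000, at 2.08, and CCNQ had 170 and 161 against 677 and 690, at 2.04. CCNO, CCNJ and CCNC followed at 1.44, 1.35 and 0.77, and all 5 were called higher in the cytoplasmic fraction. Of these, CCNO and CCNC were not called at equal library totals.

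At the other end stood CDK14, a kinase that cyclin Y recruits to the cell membrane. It had 4712 and 4064 nuclear and 773 and 769 cytoplasmic normalized counts, a log2 fold change of -2.51 ± 0.13 (DESeq2 adjusted p = 1.72e-85) and the lowest of the 50. CDK19, the paralog of CDK8 in Mediator, had 3627 and 3156 against 1082 and 1044, at -1.67 ± 0.13 (DESeq2 adjusted p = 2.80e-39). CCNH, the cyclin of CDK7, had 2990 and 2595 against 974 and 1014, at -1.49 ± 0.13 (DESeq2 adjusted p = 4.86e-30). CDK17, with 2646 and 2413 against 1081 and 1230, and CCNY, with 7384 and 5879 against 3168 and 3230, were also called higher in the nuclear fraction, at -1.13 and -1.05. Those not called were CCNG2 at 0.21, CCNI2 at 0.16, CDK20 at -0.11, CCNYL1 at -0.54, CDK18 at -0.55, CDK15 at -0.66, CCNJL at -0.76 and CCNP at -0.87. CCNI2, CDK15, CCNJL and CCNP had mean normalized counts of 29.5, 47.7, 36.7 and 3.51, and at these depths differences of this size were not detectable. With CCNC, CCNH and CDK19 counted as transcriptional, the median of that group was -1.22.

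In 5 of the 17 partner pairs examined, the cyclin and the kinase were called higher in opposite fractions. These were CCNC with CDK8, CCNC with CDK19, CDK9 with CCNT2, CCNQ with CDK10 and CDK16 with CCNY, and at equal library totals CCNC and CDK9 lost their calls. How often random pairs of genes are called in opposite fractions was not computed. Calls in either direction were common, at 35.6% cytoplasmic and 28.4% nuclear across tested protein-coding genes. CCNC also enters the count with both CDK8 and CDK19. The count is therefore not read as a trait of partners. Each pair was followed by the ratio of its read counts within a library, which no scaling between libraries changes; the level of such a ratio also depends on the lengths of both genes, so only its change between fractions was read. The standard error of a difference of log2 fold changes was the root of the summed squares, which takes both estimates as independent. Read counts of CCNQ were 0.0792 and 0.0669 times those of its kinase CDK10 in the nuclear libraries and 0.935 and 0.934 times in the cytoplasmic ones. Their log2 fold changes differed by 3.68 ± 0.22, the most among the 17 partner pairs. CDK16 over its cyclin CCNY went from 0.385 and 0.518 to 3.75 and 4.03. The Mediator pair CCNC and CDK8 went from 0.560 and 0.718 to 2.83 and 2.66, and CDK7 over CCNH went from 0.192 and 0.217 to 0.517 and 0.490. In these 4 pairs the cytoplasmic ratios lay above the nuclear ones in every library. Most of the pairs examined had no overlap between the fractions, and the share over pairs of all genes was not computed.

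Among cell-cycle pairs, CDK4 and CDK2 had larger log2 fold changes than their cyclins. CCND1 over CDK4 went from 1.07 and 0.767 in the nuclear to 0.310 and 0.379 in the cytoplasmic libraries, a difference of log2 fold changes of -1.39 ± 0.20. CCNE1 over CDK2 went from 0.430 and 0.342 to 0.175 and 0.195, a difference of -1.04 ± 0.23. For the mitotic pair the order was the reverse: CCNB1 over CDK1 went from 1.01 and 1.06 to 1.61 and 1.76, a difference of 0.70 ± 0.17. CCND3 over CDK6 went from 0.0787 and 0.0866 to 0.198 and 0.181. The 2 P-TEFb subunits CDK9 and CCNT1 lay close to each other: their ratio was 0.261 and 0.264 in the nuclear and 0.277 and 0.286 in the cytoplasmic libraries, and their log2 fold changes differed by 0.10 ± 0.21, less than its standard error.

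Several closely related genes differed in their fold change as well. CDK4 over CDK6 went from 0.180 and 0.234 to 1.22 and 1.26, a difference of 2.59 ± 0.17. CCNT1 over CCNT2 went from 0.982 and 1.03 to 3.42 and 4.08, a difference of 1.89 ± 0.18, and CCNG1 over CCNG2 from 1.54 and 1.95 to 14.7 and 12.3. The 2 kinases of the PCTAIRE group CDK16 and CDK17 went from 1.07 and 1.26 to 11.0 and 10.6. In contrast, CCNL1 over CCNL2 was 0.464 and 0.439 in the nuclear and 0.461 and 0.436 in the cytoplasmic libraries, a difference of -0.01 ± 0.19. CCND2 over CCND1 overlapped as well, at 2.51 and 3.37 against 3.40 and 2.69.

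**Figure D3:**
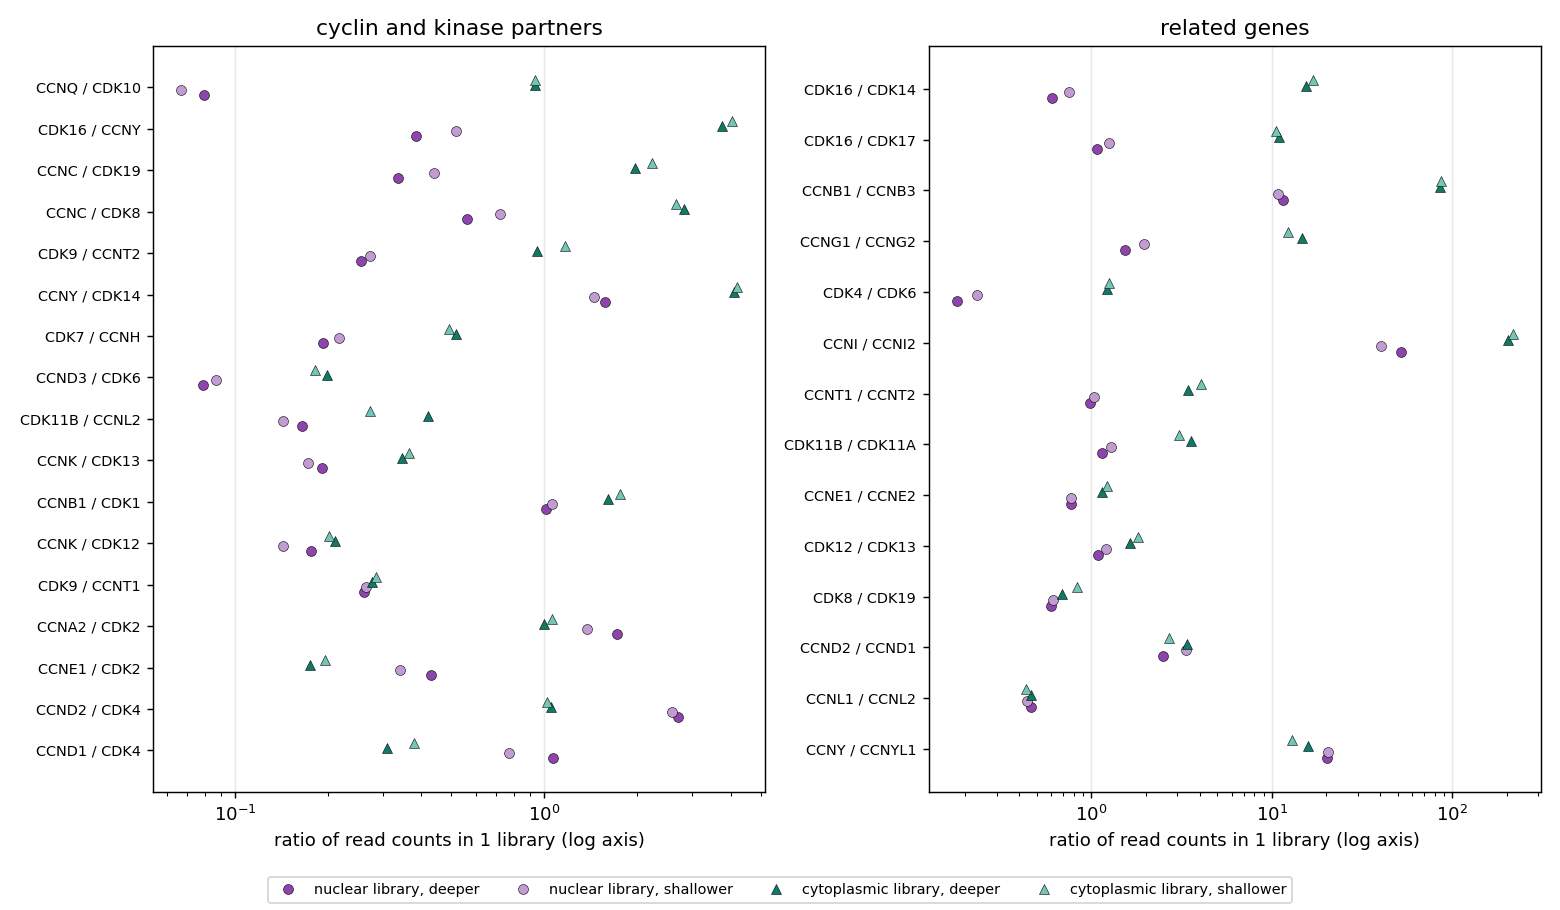
Ratio of the read counts of 2 genes within each library on a log axis, for 17 pairs of cyclin and kinase partners and 14 pairs of related genes; circles are nuclear and triangles cytoplasmic libraries. CCNQ over CDK10 lies below 0.1 in both nuclear and near 0.935 in both cytoplasmic libraries, while the 4 values of CCNL1 over CCNL2 lie between 0.436 and 0.464.

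Gene span moved with the fold change, and the groups differed in it. The median span was 14.9 kb for the cell-cycle, 28.5 kb for the transcriptional and 34.9 kb for all tested protein-coding genes. Across 12134 protein-coding genes with a mean over 50, Spearman's rho between span and log2 fold change was -0.708, as a description across genes that share the 4 libraries. It was -0.516 across the 45 members with such a mean, -0.432 across 15 cell-cycle members and 0.198 across the 13 transcriptional ones. A straight line through the protein-coding genes fell by 2.00 on the log2 scale for each 10-fold of span. The median distance from that line was 0.61 for the cell-cycle and -1.13 for the transcriptional members, so the difference of the medians shrank from -2.67 to -1.74. The part of intronic reads in this was not tested.

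Among short genes the groups stood apart. Under 30 kb, a bound chosen after the values were seen, 10 of 12 cell-cycle members were called higher in the cytoplasmic fraction and 5 of 7 transcriptional members higher in the nuclear fraction, against 56.1% and 8.69% of the 6989 tested protein-coding genes of that size. CCNL2 and CCND1 had spans of 13.6 and 13.3 kb and log2 fold changes of -1.86 and 1.48. CDK9, at 5.11 kb, lay at -1.13 from the line although it was called higher in the cytoplasmic fraction. CDK6 and CCND3, at 232 and 115 kb, lay 1.71 and 2.31 above it. CCND3 spans 6.86 kb in its canonical transcript, and CDK6 spans 232 kb there too. Of the 6 transcriptional members of 30 kb or more, CDK12, CCNK, CDK13, CDK8 and CDK7 lay at 0.17, -0.05, -0.13, -0.19 and -0.22 from the line, and CCNT2 lay at -1.31. The member furthest below the line was the cell-cycle kinase CDK3, with a span of 5.14 kb and a distance of -3.27.

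**Figure D4:**
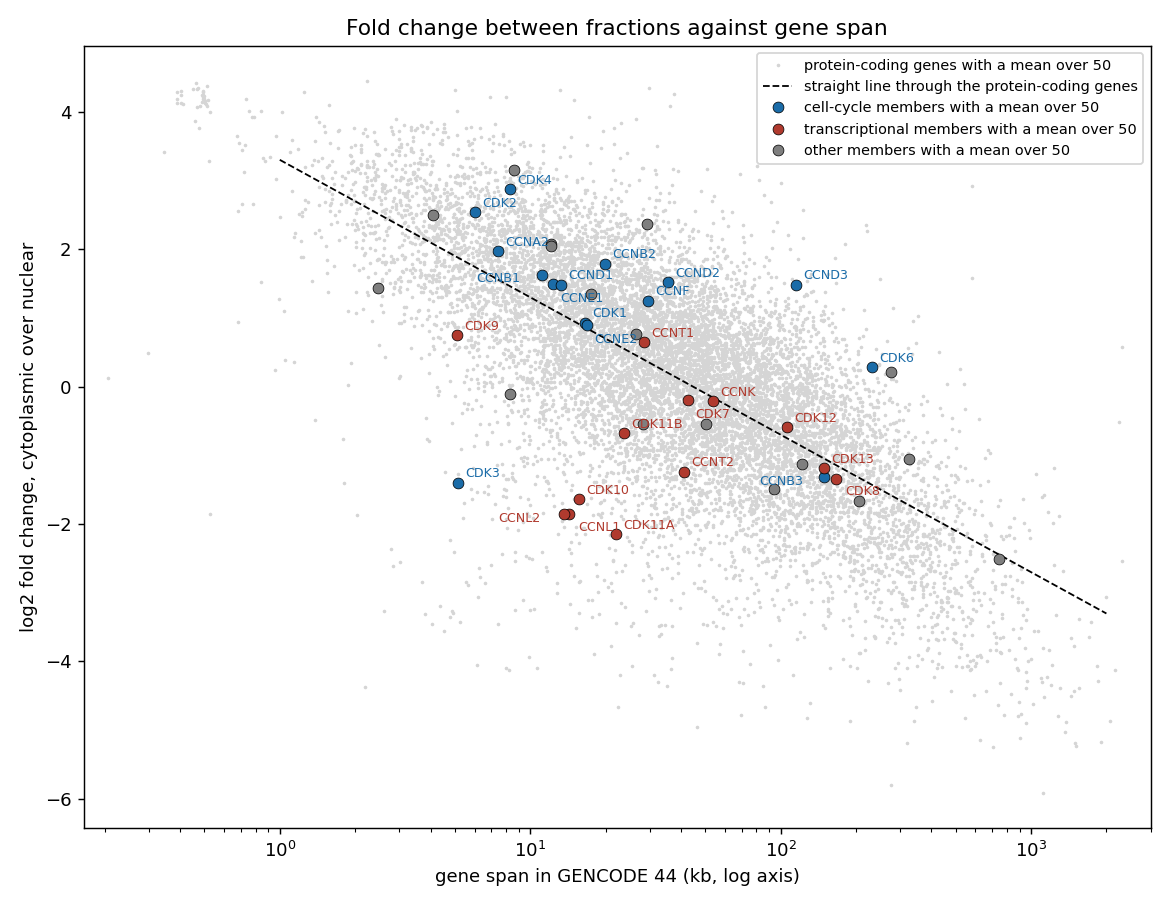
Log2 fold change of cytoplasmic over nuclear counts against gene span (kb, log axis) for protein-coding genes with a mean over 50 (grey) and for the members. The dashed line is the straight line through the protein-coding genes; the cell-cycle kinase CDK3 lies furthest below it, at -3.27 on the log2 scale, and CCNL1, CCNL2, CDK10 and CDK11A lie at -2.55 to -2.88.

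Regulators of the 2 branches were given by lists that hold no member. All 8 CDK inhibitors were called higher in the cytoplasmic fraction, with a median log2 fold change of 1.76, and 5 of the 8 kept the call at equal library totals. Their median span was 12.4 kb. In the deposited comparison, 56.1% of the tested protein-coding genes under 30 kb had a cytoplasmic call. That share does not hold at equal library totals, where none is given here. CDKN2C, an inhibitor of CDK4 and CDK6, was the highest at 2.64 ± 0.15 (DESeq2 adjusted p = 1.43e-68), and CDKN3, a phosphatase that acts on CDKs, the lowest at 0.66 ± 0.20 (DESeq2 adjusted p = 2.07e-03). Of the 7 CDC25 phosphatases, inhibitory kinases and small CDK subunits, 5 had a cytoplasmic and 1 a nuclear call, and at equal library totals the nuclear calls would be 2. The subunit CKS1B stood at 2.94 ± 0.13 (DESeq2 adjusted p = 9.27e-107) and CDC25C, which activates CDK1, at -0.86 ± 0.14 (DESeq2 adjusted p = 2.76e-09).

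The RB and E2F genes, on which the G1 kinases act, had 5 of 13 called in each direction, and at equal library totals there would be 2 cytoplasmic and 8 nuclear calls. E2F4 was the highest at 1.61 ± 0.13 (DESeq2 adjusted p = 9.54e-36) and E2F3 the lowest at -2.03 ± 0.13 (DESeq2 adjusted p = 6.87e-58). Of 12 factors of the ligases that mark cyclins for degradation, 6 had a cytoplasmic and 3 a nuclear call, from UBE2S at 2.86 ± 0.11 (DESeq2 adjusted p = 1.74e-138) to ANAPC10, a subunit of the anaphase-promoting complex, at -2.49 ± 0.15 (DESeq2 adjusted p = 1.35e-60). At equal library totals their nuclear calls would be 6. Of 13 partners of P-TEFb, CDK7 and the Mediator kinases, 4 had a cytoplasmic and 6 a nuclear call, and at equal library totals the cytoplasmic calls would be 2. AFF4 and ELL2 would then gain a nuclear call. MEPCE, a part of the 7SK complex that holds P-TEFb inactive, stood at 2.11 ± 0.13 (DESeq2 adjusted p = 1.47e-55), and MNAT1, which assembles CDK7 with CCNH, at -3.06 ± 0.12 (DESeq2 adjusted p = 1.66e-143). The calls of the deposited comparison are read against the 35.6% and 28.4% of tested protein-coding genes. These shares do not hold at equal library totals, where none are given here.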

How the data were processed

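The deposited table held 1 row per gene. The authors aligned paired-end reads of 100 nt to hg38 with STAR. They counted them over exons and introns with featureCounts 2.0.2 on GENCODE 34 extended with NCBI genes. Annotated readthrough transcripts and stretches that several genes share had been removed from that annotation. Fractions were compared with DESeq2, and whether counting used strand is not given in the sources used here. The deposited mean normalized count is a signal averaged by the authors over 4 libraries, the deposited fold change and its standard error are on the log2 scale, and the deposited Wald score has its p-value and its adjusted p-value beside it. These columns were the main result, since no library columns were used here.

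Counts per library were solved from the mean, the fold change and its standard error. The mean is a sum of whole counts times 4 fixed steps, the inverse of 4 times each size factor, and among combinations that give the mean, the one whose negative binomial fit returned the log2 fold change was kept. Size factors were 1.34 and 1.19 (nuclear) and 0.853 and 0.755 (cytoplasmic), with the fraction of a step read from the sign of the fold changes; replicate numbers could not be assigned. Of 23333 tested genes 23114 (99.1%) were solved, with 194 of a mean over 10000 not attempted. The search covered only combinations near the split between fractions that the deposited fold change gives. For 9361 genes with a mean over 20, 1 combination in that range gave the mean. Its fit missed the deposited log2 fold change by a median of 3.4e-09. This check is not fully independent, since the search used the fold change and the fit used the standard error. For 22 members 1 combination was left, and for the other 28 the next best missed by at least 112 times as much. Solved genes held 21616948 and 18750173 (nuclear) and 14493254 and 13322073 (cytoplasmic) counts, which leave out the most abundant genes and are not full depths. Across 10870 solved genes with a mean over 200, log2 ratios of the 2 libraries of a fraction had an SD of 0.18 (nuclear) and 0.2 (cytoplasmic). The DESeq2 p-values rest on 2 biological replicates a fraction and on a spread estimated with other genes, so they do not measure a gene's own spread alone. The fit that returned the fold changes held no term for replicate pairs.

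Solved counts of 17470 genes with a mean of at least 10 were also tested with limma 3.58.1 (voom, the 4 size factors as library sizes), with and without each library; this was added after the table was seen. Both steps were tested on simulated data. Gene models came from GENCODE 44 on hg38. Every member is named; standard errors and adjusted p-values are given for the 3 highest and 3 lowest of each group with a mean over 50, for the main cell-cycle and transcriptional kinases and cyclins, and for the highest and lowest of each list. Members and lists were chosen with earlier results of these data known. R 4.3.3, Python 3.11.15, numpy 2.4.6, pandas 2.3.3 and scipy 1.17.1 were used.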

Additional observations from a re-analysis of the deposited data

How the results depend on the processing

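No paired analysis was possible because the solved libraries carry no replicate number. The shift to equal library totals moved the medians of the cell-cycle, transcriptional and other members to 0.82, -1.85 and -0.77. Centring on the protein-coding median moved them to 1.37, -1.30 and -0.22. The difference of the medians stayed at -2.67 under both. After the straight line on gene span was subtracted, the cell-cycle and transcriptional medians were 0.61 and -1.13 and their difference was -1.74. The median of the other members changed sign, to 0.21 with a mean over 50, to 0.04 with limma and to 0.03 with CCNC, CCNH and CDK19 counted as transcriptional. At equal totals CDK6, CCNT1, CCNG2 and CCNI2 changed sign, to -0.38, -0.01, -0.45 and -0.50; CDK1, CCNE2, CDK9, CCNC and CCNO lost their call, and CDK7, CCNK, CCNYL1, CDK18 and CDK15 gained one. The nuclear calls among the other members then rose from 5 to 8, and the cytoplasmic calls among the transcriptional members fell from 2 to 0, which was also their number with a log2 fold change over 1 in size; with Bonferroni adjustment it was 1, and the nuclear calls among the cell-cycle members were 0. At equal totals cytoplasmic calls were 5 of the CDK inhibitors, 2 of the RB and E2F genes and 2 of the P-TEFb, CDK7 and Mediator partners, and nuclear calls were 2 of the CDC25, kinase and subunit list, 8 of the RB and E2F genes and 6 of the cyclin-degrading factors. Shares of all tested genes called at equal totals are not given beside these counts.

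With limma on the solved counts, 46 of the 48 members tested kept their side of the threshold and CCNYL1 and CDK18 gained a nuclear call. Leaving out each library in turn gave 22 members called higher in the cytoplasmic fraction throughout and 16 to 17 called higher in the nuclear fraction. The median then ranged from 1.37 to 1.57 for the cell-cycle, from -1.23 to -1.15 for the transcriptional and from -0.07 to 0.04 for the other members, and the difference of the medians from -2.79 to -2.52. CDK11B lost its call without the shallower cytoplasmic library, and CDK20, not called in any fit, ranged from -0.24 to 0.03. A fit without 1 library leaves a fraction with 1 library, which is taken to vary like the other fraction. The cause of these changes was not tested. CCNP and CCNA1 had at most 11 reads in any library, and no difference of the size seen was detectable there.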
